A study of Mus musculus with 12 samples.

Results

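Myelin is the lipid-rich sheath that oligodendrocytes wrap around axons in the central nervous system, and it speeds conduction between the gaps called nodes of Ranvier. Its proteins hold the wraps together, seal them and contact the axon. Its lipids include cholesterol and galactolipids, the latter made by dedicated enzymes. In the cerebellum, myelin is found mainly in the white matter and around Purkinje cell axons, whereas granule neuron precursors, from which medulloblastoma (MB) of the SHH type arises, belong to a neuronal lineage that makes none. The myelin genes described here are 9 members chosen by name, Mbp, Mag, Mog, Mobp, Cnp, Mal, Cldn11, Ugt8a and Fa2h, out of 18193 genes measured. Each was read from the probe sets of the array that were paired with that gene alone.

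Affymetrix mouse arrays of 12 mice, with 1 array per mouse, measured MBs of 8 XRCC4/p53-deficient mice (MB), cerebellar granule progenitor cells of 2 mice (CGNP) and whole cerebellum of 2 mice (WC). The study gives the tumor mice as Nestin-Cre p53-/- Xrcc4 c/-, and as Nestin-Cre p53-/- Xrcc4 c/c for the mice of MB_706 and MB_1206. The loss of XRCC4, a factor of non-homologous end joining, was thus limited to cells descended from Nestin-expressing neural progenitors. The study describes the normal samples as matched to the tumors in age and genotype, and neither the exact genotype nor the age of a control mouse stands in the labels. The labels call the MBs tumor tissue, while the study also speaks of MB cells and lists MB_630, MB_794, MB_1197, MB_1206, MB_1207 and MB_1224 among its cultures. Whether the arrays held tissue or cultured cells is therefore not settled here. WC is a mixture of cell types, and in all groups fewer oligodendrocytes and less RNA per oligodendrocyte cannot be told apart.

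Levels are GCRMA values on a log2 scale, with a lowest value of 2.2 that is called the floor. A level within 0.5 of it is called close to the floor, and a fold change against a group whose mean lies there is given as a lower bound. Between 42.1% and 43.4% of probe sets exceeded a log2 level of 5 on each array. The markers of dividing progenitors and of Purkinje cells fitted the labels. The 5 markers of dividing progenitors averaged 10.58 to 10.94 in the MBs, 6.69 to 6.9 in CGNP and 2.49 to 2.61 in WC. The 6 Purkinje cell markers averaged 11.41 to 11.5 in WC, 4.91 to 5.1 in CGNP and 3.64 to 6.89 in the MBs. Among the former, Atoh1 averaged 11.95 in MB, 5.95 in CGNP and 2.76 in WC. Astroglial markers averaged 7.28 in both CGNP samples, 4.64 to 7.01 in the MBs and 8.79 to 8.81 in WC. Of these, Gfap averaged 9.02 in CGNP and 5.01 in WC, while the list mean was higher in WC. The purity of the CGNP samples was not tested. MB_706 stood apart in a sign of RNA quality, the mean log2 gap between the 3′ and 5′ control probe sets of Actb and Gapdh, which was 2.93 against 0.56 to 0.82 in the other MBs. The same gap was 0.48 and 0.52 in WC and 0.15 and 0.23 in CGNP, so it also differed between the groups. Leaving out each sample in turn changed no call of a myelin gene between MB and WC.

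All 9 myelin genes were lower in the MBs than in WC, with no overlap of the groups. The log2 differences ran from -8.09 for Mal to -4.04 for Mbp with a median of -5.03, against a median of 0 over all genes. All 9 passed the test (limma, adjusted p under 0.05), where 21.8% of all genes passed in that direction, and 22.6% of all genes lay lower without overlap. Every myelin gene exceeded a log2 level of 5 in both WC samples. The 2 WC samples differed by at most 0.32 at any of them.

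**Figure D1:**
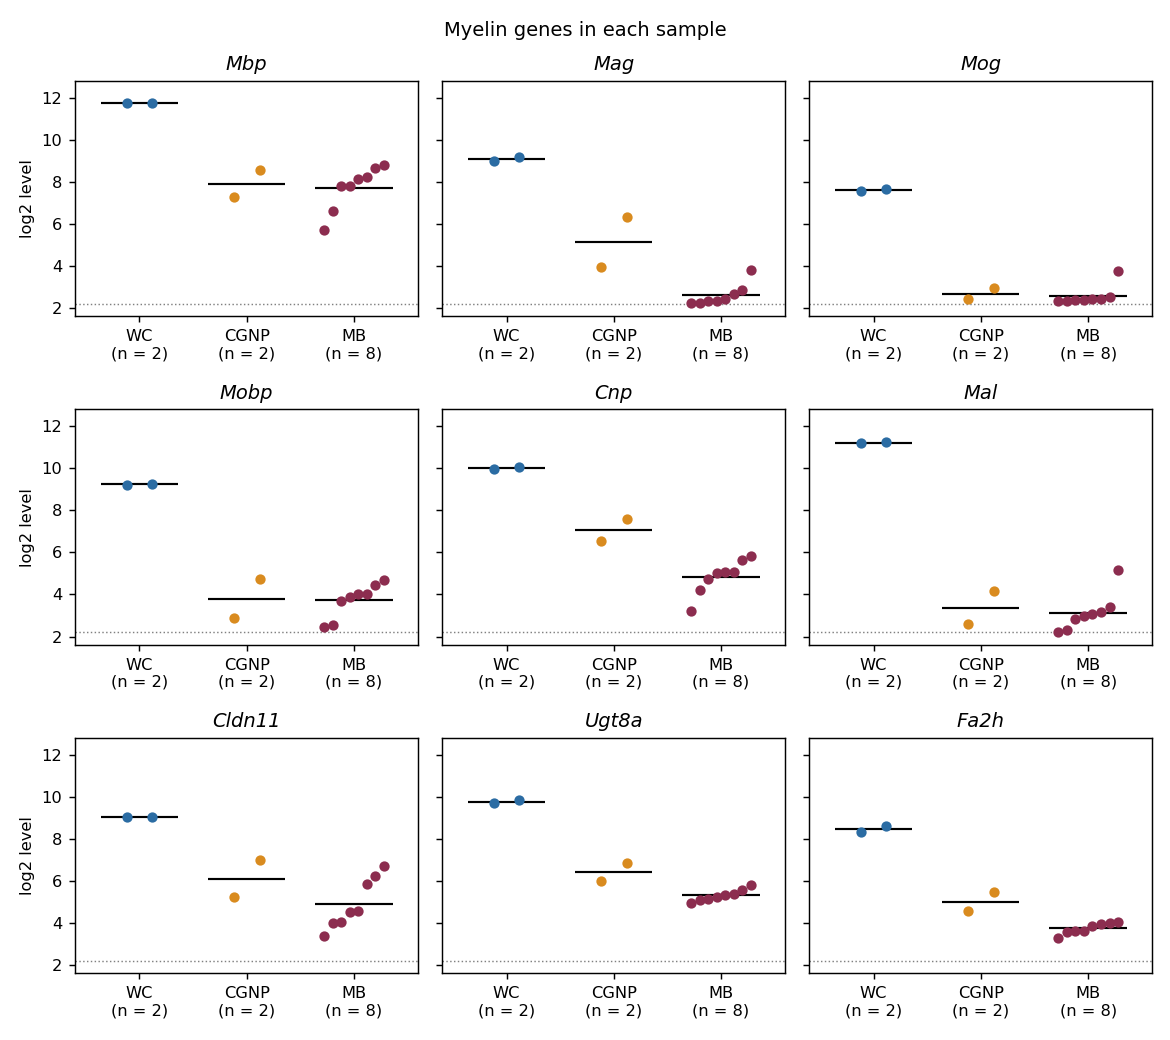
Log2 level (vertical axis) of each of the 9 myelin genes in 2 WC, 2 CGNP and 8 MB samples. Points are samples sorted by level within a group, black lines are group means and the dotted line is the floor at 2.2. For each gene both WC points lie above all other points, and the MB points of Mag and Mog lie close to the floor except those of MB_630 for both and of MB_706 for Mag.

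Among the proteins of compact myelin, Mbp encodes myelin basic protein, which fuses the cytoplasmic faces of the membrane. Its log2 level was 11.77 and 11.76 in WC, 7.27 and 8.56 in CGNP, and in the MBs 8.68 (MB_630), 7.81 (MB_706), 8.13 (MB_794), 7.83 (MB_1187), 8.22 (MB_1197), 8.81 (MB_1206), 5.73 (MB_1207) and 6.60 (MB_1224). Mbp was thus the one myelin gene above a log2 level of 5 in each of the 12 samples, and 6 of the 8 MBs lay between 7.81 and 8.81, close to the CGNP range. The difference between MB and WC was -4.04 (standard error 0.753, adjusted p = 0.00141 by limma), a level 16.5-fold lower (95% interval 5.11 to 53.3). Between MB and CGNP it was -0.19 (95% interval -1.88 to 1.5, adjusted p = 1), an interval wide enough to hold a change of more than 1 log2 unit in either direction.

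Mal encodes a small membrane protein that carries myelin components to the cell surface, and its gene level differed most. Its log2 level was 11.19 and 11.27 in WC, 2.6 and 4.16 in CGNP, and in the MBs 5.16 (MB_630), 3.19 (MB_706), 2.99 (MB_794), 2.83 (MB_1187), 3.39 (MB_1197), 3.05 (MB_1206), 2.2 (MB_1207) and 2.33 (MB_1224). Only MB_630 exceeded both CGNP samples, and MB_1207 and MB_1224 were close to the floor. Mal fell by 8.09 on the log2 scale between WC and MB, at least 272-fold (adjusted p = 6.22e-06 by limma), since 1 of its 2 probe sets was at the floor in 7 of the 8 MBs.

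Mobp encodes a basic protein of the same compartment as MBP. Its log2 level was 9.24 and 9.23 in WC, 2.88 and 4.72 in CGNP, and in the MBs 4.43 (MB_630), 3.71 (MB_706), 4.02 (MB_794), 4.00 (MB_1187), 3.89 (MB_1197), 4.67 (MB_1206), 2.47 (MB_1207) and 2.54 (MB_1224). Of the 8 MBs, 6 lay between the CGNP samples, and MB_1207 and MB_1224 were close to the floor. Mobp was at least 45.8-fold lower in MB than in WC (adjusted p = 6.06e-05 by limma), since 2 of its 5 probe sets were close to the floor in every MB. Its difference between MB and CGNP was -0.08 (95% interval -1.53 to 1.36, adjusted p = 1).

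Cldn11 encodes the claudin that forms the tight junctions between the wraps, and it varied most among the tumors. Its log2 level was 9.06 and 9.02 in WC, 5.23 and 6.98 in CGNP, and in the MBs 6.24 (MB_630), 5.83 (MB_706), 3.40 (MB_794), 4.03 (MB_1187), 4.59 (MB_1197), 6.72 (MB_1206), 4.00 (MB_1207) and 4.53 (MB_1224). MB_630, MB_706 and MB_1206 stood within the CGNP range and the other 5 below it. The SD over the 8 MBs was 1.2, a spread that 98.8% of all genes stayed under. Cldn11 was 17.4-fold lower in MB than in WC (95% interval 4.47 to 67.6, adjusted p = 0.0031 by limma).

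Mag and Mog encode surface proteins of the sheath. Mag encodes a sialic acid-binding protein of the innermost wrap that contacts the axon. Its log2 level was 9.18 and 9.01 in WC and 3.94 and 6.35 in CGNP, whereas the 8 MBs ran from 2.25 to 3.79 with a median of 2.36, and 6 of them were close to the floor. Mag was at least 89.8-fold lower in MB than in WC (log2 difference -6.49, adjusted p = 7.96e-06 by limma). Mog encodes the immunoglobulin-like protein of the outermost wrap, which appears late in myelination. It stood at 7.56 and 7.66 in WC, at 2.41 and 2.95 in CGNP and between 2.32 and 3.77 in the MBs, with 7 of 8 MBs close to the floor. It was at least 32.7-fold lower in MB than in WC (log2 difference -5.03, adjusted p = 1.46e-06 by limma). For both genes the highest MB was MB_630.

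Cnp encodes an enzyme of the cytoplasmic channels in myelin that already appears in premyelinating oligodendrocytes. Its log2 level was 10.07 and 9.97 in WC, 6.55 and 7.59 in CGNP, and in the MBs 5.82 (MB_630), 5.01 (MB_706), 5.09 (MB_794), 4.74 (MB_1187), 5.05 (MB_1197), 5.64 (MB_1206), 3.23 (MB_1207) and 4.23 (MB_1224). Every MB lay below both CGNP samples, and both CGNP samples below WC. Cnp was 36-fold lower in MB than in WC (95% interval 14.4 to 90) and 4.65-fold lower than in CGNP (95% interval 1.86 to 11.6), with adjusted p = 5.15e-05 and 0.0134 by limma.

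Ugt8a and Fa2h encode enzymes of myelin lipids. Ugt8a makes galactosylceramide, the main galactolipid of myelin. It stood at 9.70 and 9.85 in WC, at 6.01 and 6.86 in CGNP and at 4.97 to 5.79 in the MBs, with a median of 5.28. Fa2h adds the hydroxyl group to the fatty acids of these lipids. It stood at 8.63 and 8.31 in WC, at 4.55 and 5.46 in CGNP and at 3.27 to 4.03 in the MBs, with a median of 3.74. Both kept the order WC, CGNP, MB without overlap, and their SDs over the 8 MBs were 0.27 and 0.26. Of the 2 probe sets of Ugt8a, 1419063_at had an SD of 0.49 over the MBs, and 1419064_a_at was close to the floor in each MB, with an SD of 0.13. Against WC, Ugt8a was at least 22.1-fold lower (adjusted p = 2.37e-07 by limma) and Fa2h 26.5-fold lower (95% interval 18 to 39.1, adjusted p = 2.22e-07 by limma).

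The comparison of CGNP with WC sets isolated progenitors beside whole cerebellum, and it shares the WC samples with the comparison above. No label gives the age of these mice, so effects of age and of isolation cannot be told apart here. Of the 9 myelin genes, 8 were lower in CGNP, where 13.6% of all genes passed in that direction, and all 9 lay lower without overlap, as did 27.8% of all genes. The median log2 difference was -3.86, from -7.85 for Mal to -2.94 for Cldn11. Mal was at least 230-fold lower (adjusted p = 9.5e-05 by limma) and Mobp at least 43.3-fold lower (adjusted p = 0.000711). Cldn11 did not pass (95% interval -5.41 to -0.46, adjusted p = 0.0788). With only 2 samples in each group, leaving out a single one left between 6 and 8 genes past the test. The calls lost in this way were those of Mbp, with an adjusted p of 0.0889 without CGNP_2698, and of Cnp, with 0.0975, and both genes missed the threshold without either WC sample too.

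MB differed from CGNP at fewer of the myelin genes. Mag, Cnp, Ugt8a and Fa2h, 4 of the 9, were lower in MB and lay without overlap below CGNP, where 18.6% of all genes passed in that direction and 20.5% lay lower without overlap. Mag was at least 5.81-fold lower (log2 difference -2.54, adjusted p = 0.00525 by limma), Fa2h 2.41-fold (adjusted p = 0.00262) and Ugt8a at least 2.19-fold (adjusted p = 0.00386). Mbp, Mog, Mobp, Mal and Cldn11 did not pass, and their differences ran from -1.18 for Cldn11 to -0.08 for Mobp. This comparison rests on the pair of CGNP samples, and these differed. CGNP_2705 stood above CGNP_2698 at each of the 9 genes, by 0.53 for Mog to 2.41 for Mag with a median of 1.29. The median over all genes was 0. A rise of more than 0.8 in CGNP_2705 was found at every myelin gene but Mog and at 1.75% of all genes. Without CGNP_2705 none of the 9 passed by limma, 3 of them at an unadjusted p under 0.05, and the adjusted p of the 4 genes then lay between 0.0507 for Fa2h and 0.163 for Cnp. The log2 difference of Mag was then -1.33 in place of -2.54. With a lone CGNP sample this fit takes its spread from the MB and WC samples and assumes that CGNP varies like them. The same CGNP sample held more Myrf (5.05 against 2.68), Gpr17 (8.99 against 7.66), Enpp6 (4.41 against 3.30) and Aspa (4.21 against 3.09), all genes of the oligodendrocyte lineage. The other measured genes of the same lists, described below, were higher there too, some by little, with these exceptions. Ptprz1 was at 8.38 against 8.62 and Vcan at 4.82 against 4.83. Gjb1, Hapln2 and C1ql1 were equal in both and close to the floor, and Apod and Qdpr were equal above it. Astroglial markers averaged 7.28 in both, with S100b higher in CGNP_2705 (8.49 against 7.31) and Gja1 lower (7.26 against 8.14). Granule neuron markers averaged 9.27 in CGNP_2698 and 9.31 in CGNP_2705, and microglial markers 3.37 and 4.26. The part of other cells in the CGNP samples was not tested.

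**Figure D2:**
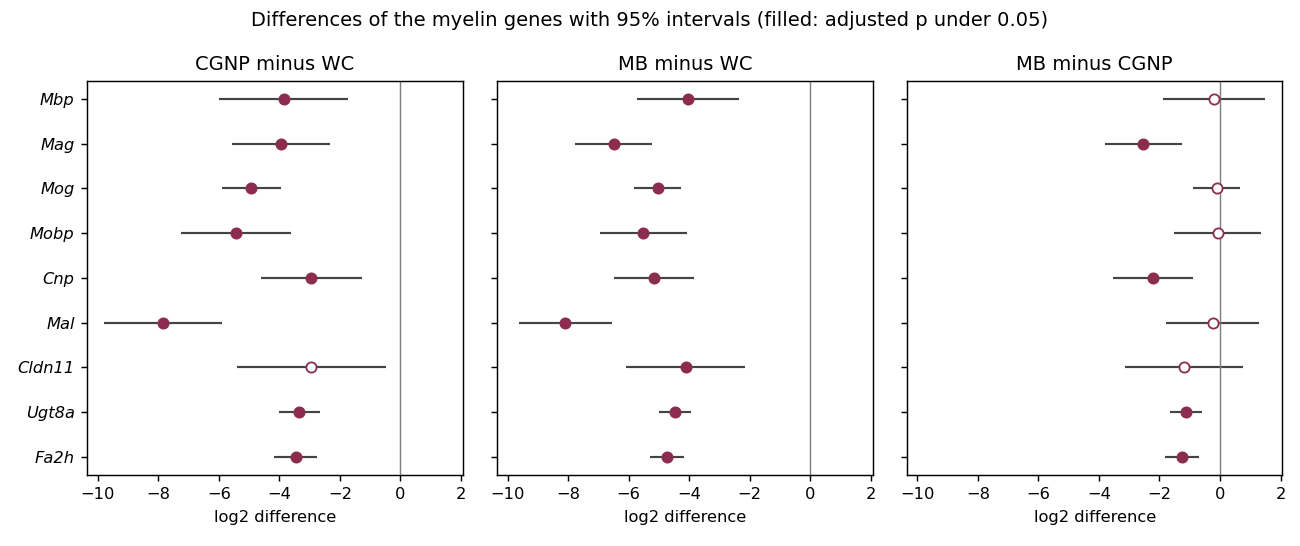
Log2 difference (horizontal axis) of each myelin gene for CGNP minus WC, MB minus WC and MB minus CGNP, with the 95% interval of limma as lines. Filled points passed at an adjusted p under 0.05: 8 of 9 for CGNP minus WC, 9 of 9 for MB minus WC and 4 of 9 for MB minus CGNP, where the other intervals include 0.

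In the study the normal samples were taken as a single group of 4. Against that group, 5 of the 9 myelin genes, Cldn11, Cnp, Fa2h, Mag and Ugt8a, were lower in MB (limma), where 16.4% of all genes passed in that direction. The 4 normal samples were not alike for these genes, with a mean over the 9 genes of 9.60 and 9.56 in WC against 4.6 and 5.96 in CGNP. Mal, which fell by 8.09 on the log2 scale against WC alone, had an adjusted p of 0.0612 against the 4 samples together.

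The tumors differed among themselves in a pattern that several myelin genes shared. The mean over the 9 genes was 3.44 in MB_1207 and 3.77 in MB_1224, between 4.08 and 4.45 in MB_1187, MB_794, MB_1197 and MB_706, 4.85 in MB_1206 and 5.29 in MB_630. MB_1207 was among the lowest 2 MBs at 7 of the 9 genes and MB_1224 at 6, whereas MB_630 was the highest at 5 and MB_1206 at the other 4. The SD over the 8 MBs was 1.05 for Mbp, 0.82 for Cnp, 0.81 for Mobp and 0.91 for Mal, against a median SD of 0.18 over all genes and of 0.27 over genes with a mean MB level above 5. Marker levels of other brain cells also differed among the MBs. The 10 astroglial markers averaged 4.64 in MB_1207 and 5.06 in MB_1224 but 6.22 to 7.01 in the other 6 MBs. Purkinje cell markers averaged 3.64 and 3.79 in that pair, 4.26 to 5.29 in 5 others and 6.89 in MB_630. Endothelial markers averaged 4.57 in MB_630 and 2.55 to 3.96 in the others, and granule neuron markers 9.66 in MB_630 and 7.89 to 8.86 in the others. Microglial markers averaged 5.98 in MB_1207, 5.81 in MB_1224 and 6.23 to 7.14 in the other 6. MB_1206, second highest in the myelin mean, was not high in each list, with astroglial markers at 6.22 and endothelial markers at 2.69. Markers of dividing progenitors ranged from 10.58 to 10.94. The part of surrounding cerebellum in these levels was not tested. Without MB_1207 and MB_1224 together, and likewise without MB_630 and MB_706 together, 9 of the 9 genes passed between MB and WC and 4 between MB and CGNP.

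**Figure D3:**
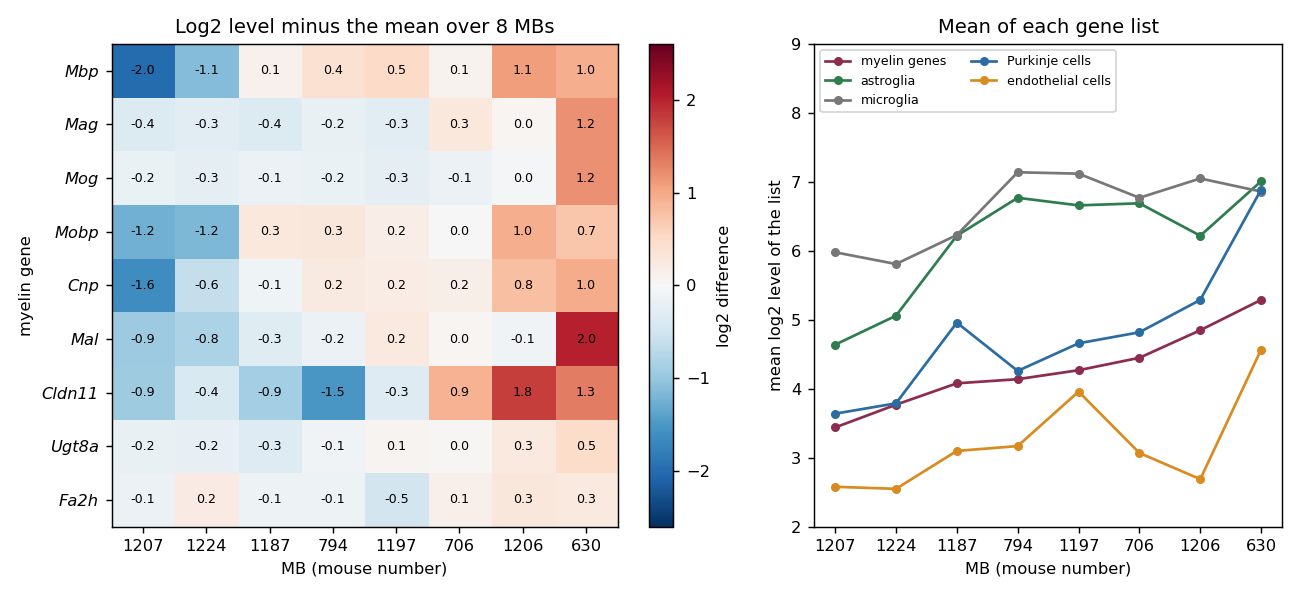
Left, log2 level of each myelin gene in each MB minus its mean over the 8 MBs, coloured from blue (lower) to red (higher), with MBs ordered by their mean over the 9 genes. Right, mean log2 level of the 9 myelin genes and of 4 marker lists in the same MBs: the myelin mean runs from 3.44 in MB_1207 to 5.29 in MB_630, and the Purkinje cell mean from 3.64 to 6.89.

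The probe sets of a gene did not all move together. The 9 genes had 24 probe sets, of which 22 were lower in MB than in WC, 1 was higher and 1 did not pass, where 20.1% of all probe sets passed lower and 21.3% higher. Between MB and CGNP 5 were lower, 2 higher and 17 did not pass, where 17.4% of all probe sets passed lower and 17.9% higher. Between CGNP and WC 15 were lower, none was higher and 9 did not pass, where 12.5% of all probe sets passed lower and 14.1% higher. Both probe sets that were higher in MB than in CGNP belong to Mbp. Probe set 1425264_s_at stood at 8.13 and 7.23 in WC, 7.49 and 7.18 in CGNP and 7.81 to 9.31 in the MBs, higher by 1.03 than in WC (adjusted p = 0.041 by limma) and by 1.38 than in CGNP (adjusted p = 0.012). Probe set 1425263_a_at stood at 7.66 and 7.33 in WC, 5.64 and 5.17 in CGNP and 5.98 to 7.38 in the MBs, higher by 1.09 than in CGNP (adjusted p = 0.028). In MB_1207, where the other 6 Mbp probe sets had their lowest MB level, both had their highest. Those 6 probe sets fell by 3.58 to 7.34 between WC and MB. The gene level of Mbp averages 4 of the 8 probe sets, those with no s or x suffix, and without 1425263_a_at, which is among them, the difference between MB and WC was -5.06 in place of -4.04 (adjusted p = 0.00297 by limma). Which transcripts of Mbp each probe set reads was not analysed here.

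The 5 probe sets of Mobp diverged in another way. Probe set 1433785_at stood at 13.53 and 13.68 in WC, at 3.14 and 6.59 in CGNP and, in the MBs, at 7.22 to 8.91 in 6 tumors but at 2.93 in MB_1207 and 2.94 in MB_1224. Those 6 tumors were thus above both CGNP samples at this probe set. Probe set 1421010_at ran from 2.2 in MB_1207 to 6.67 in MB_1206, and it was 12.26 and 12.15 in WC. Probe set 1436263_at was close to the floor in each MB (2.25 to 2.39) against 8.19 and 7.87 in WC, and 1450088_a_at stood at 2.28 to 3.17 in the MBs against 10 and 10.27 in WC. Probe set 1441308_at was at the floor in every sample, so it adds the same low value to the mean of the gene throughout. With the probe set of highest signal alone, the difference of Mobp between MB and CGNP turned to 1.76 with an adjusted p of 0.539. For Mal, probe set 1432558_a_at was at 2.2 in each MB but MB_630, where it was 3.62, and stood at 10.17 and 10.10 in WC.

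**Figure D4:**
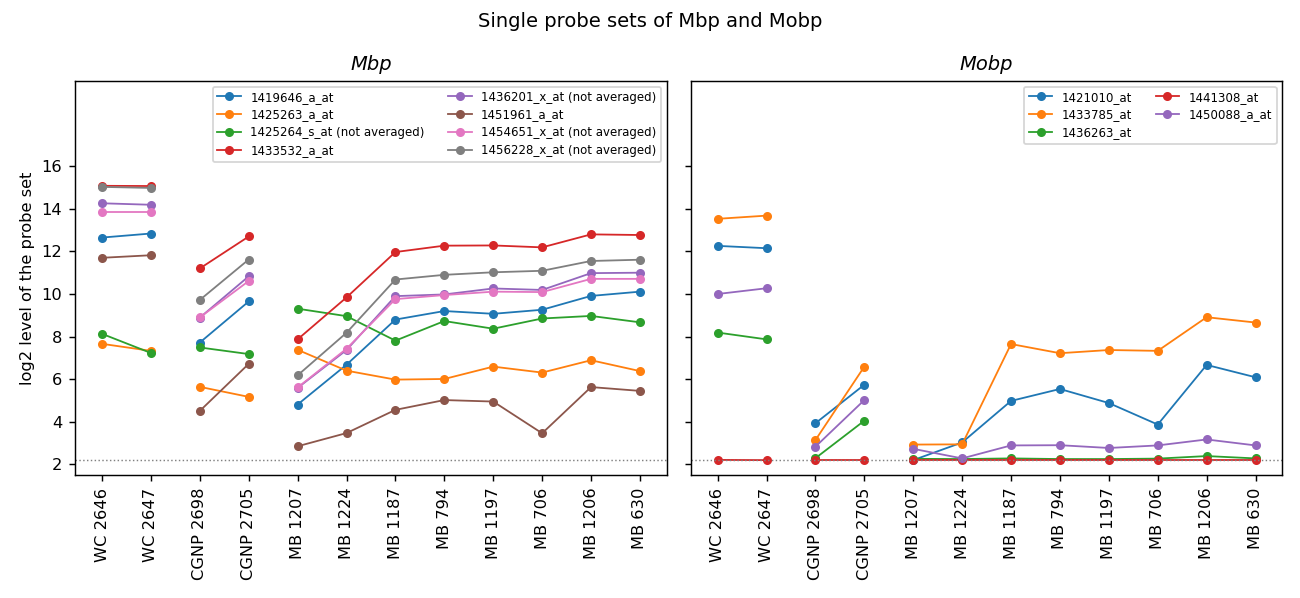
Log2 level (vertical axis) of the 8 Mbp and 5 Mobp probe sets in the 12 samples, with 1 colour per probe set and lines joining samples of a group. In MB_1207 and MB_1224 most Mbp probe sets drop while 1425263_a_at and 1425264_s_at do not, and Mobp 1433785_at drops from 7.22 or more in the other MBs to 2.93 and 2.94.

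The start regions of the myelin genes are shown because the factors that switch these genes on bind DNA with known preferences. SOX10, with other SOX proteins, binds the core ACAAAG, and MYRF binds CTGGNAC. RefSeq windows (GRCm38.p6) from 250 bases before to 50 after the annotated start were searched for 7 of the 9 genes, and none for Mbp and Fa2h. The chromosome that holds Mbp was left out when windows were selected, so nothing can be read from the lack of an Mbp window. Both strands were searched, with positions counted from the start site. The letters that match either motif are in capitals.
Mobp chr9:120149492-120149791 (plus strand): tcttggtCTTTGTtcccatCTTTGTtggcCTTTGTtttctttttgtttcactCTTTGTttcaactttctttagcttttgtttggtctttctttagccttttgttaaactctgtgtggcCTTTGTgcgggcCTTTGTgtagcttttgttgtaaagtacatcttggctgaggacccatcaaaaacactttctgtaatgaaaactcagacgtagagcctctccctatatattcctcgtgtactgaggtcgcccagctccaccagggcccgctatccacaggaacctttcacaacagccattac
Mag chr7:30914814-30915113 (minus strand): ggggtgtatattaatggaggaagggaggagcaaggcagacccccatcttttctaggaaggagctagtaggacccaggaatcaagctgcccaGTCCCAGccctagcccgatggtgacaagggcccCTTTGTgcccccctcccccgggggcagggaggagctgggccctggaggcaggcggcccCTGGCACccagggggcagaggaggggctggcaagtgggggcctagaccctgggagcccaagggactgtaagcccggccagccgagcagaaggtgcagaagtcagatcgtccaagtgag
Cnp chr11:100574689-100574988 (plus strand): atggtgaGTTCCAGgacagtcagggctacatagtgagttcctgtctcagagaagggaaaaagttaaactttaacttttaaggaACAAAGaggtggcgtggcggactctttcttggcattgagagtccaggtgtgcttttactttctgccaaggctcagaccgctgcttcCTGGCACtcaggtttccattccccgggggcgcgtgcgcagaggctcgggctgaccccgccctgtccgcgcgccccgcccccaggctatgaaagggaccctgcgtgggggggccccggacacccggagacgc
Mog chr17:37023349-37023648 (minus strand): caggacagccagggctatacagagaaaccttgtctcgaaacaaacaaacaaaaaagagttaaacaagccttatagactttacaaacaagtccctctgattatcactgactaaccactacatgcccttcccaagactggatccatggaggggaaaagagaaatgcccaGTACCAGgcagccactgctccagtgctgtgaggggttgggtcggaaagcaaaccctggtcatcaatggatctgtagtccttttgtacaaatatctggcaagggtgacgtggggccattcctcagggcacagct

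The Mobp window held the SOX core 6 times, at -243, -231, -221, -198, -132 and -120, each time on the opposite strand as CTTTGT. Of 32851 windows in the table, 18.7% held the core at least once and 0.198% held it 3 times or more, and the Mobp window was the only one with 6 or more, a threshold chosen after its count was seen. Of the 3 Mag windows, 1 held neither motif and another overlapped the window shown. The one shown held the core once (-126) and the MYRF motif at -159 and -68, and the Cnp window held the core once (-167) and the MYRF motif at -243 and -81. The Mog window held the MYRF motif once (-83), a motif found in 19.3% of all windows. Mal, Cldn11 and Ugt8a had neither motif in their window, and no window of the 7 genes held the TATA box TATAAA, which 13.6% of all windows hold. Cldn11 and Ugt8a held 24 and 40 CpG, against a median of 7 over all windows. Of the 4 genes with these letters, Mag and Cnp were lower in MB than in CGNP, and Mobp and Mog did not pass there. These matches describe letters and were not set against binding data.

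The other genes of mature oligodendrocytes showed the same split between whole cerebellum and the progenitors and tumors. Of 16 measured, 15 were lower in MB than in WC and 1 was higher, with a median log2 difference of -2.99. Of all genes, 21.8% passed lower and 22.2% higher there. Of the same 16, 13 were lower and 1 higher in CGNP than in WC (median -3.04), where 13.6% of all genes passed lower and 14.9% higher. Between MB and CGNP 1 was higher and 15 did not pass (median -0.22), where 18.7% of all genes passed higher and 18.6% lower. Ermn, a cytoskeletal protein of late oligodendrocytes, was at least 87.9-fold lower in MB than in WC (adjusted p = 1.95e-06 by limma). Aspa, which breaks down N-acetylaspartate for lipid synthesis, was 42.3-fold lower (adjusted p = 6.02e-06). The gene higher in MB than in WC was Cd9, a tetraspanin that many cell types share, at 12.29 on average against 10.20 (adjusted p = 2.41e-06). The gene higher in MB than in CGNP was Ppp1r14a, an inhibitor of myosin phosphatase, at 4.99 to 6.44 in the MBs, 2.85 and 3.74 in CGNP and 8.03 and 7.67 in WC (log2 difference 2.6, adjusted p = 0.000249). Car2, carbonic anhydrase of glia, was 123-fold lower in CGNP than in WC (adjusted p = 0.00237) and 18.4-fold lower in MB (adjusted p = 0.00613).

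Transcription factors and precursor genes of the lineage passed the test in both directions. Of 9 transcription factors, 2 were higher and 3 lower in MB than in WC, where 22.2% of all genes passed higher and 21.8% lower. Against CGNP 5 were higher and 1 lower, where 18.7% of all genes passed higher and 18.6% lower. Of these counts, the 5 higher than in CGNP lay furthest above the share of all genes. Olig2, a determinant of the oligodendrocyte lineage that is also present in other progenitors, stood at 7.38 to 9.81 in the MBs, at 5.71 and 6.81 in CGNP and at 7.19 and 7.26 in WC. It was 6.13-fold higher in MB than in CGNP (adjusted p = 0.00399 by limma) and 3.14-fold higher than in WC (adjusted p = 0.0353). Olig1, its neighbour and relative, was 5-fold higher in MB than in CGNP (adjusted p = 0.00732), and Sox8 was 4.5-fold higher (adjusted p = 0.00893). Myrf, which encodes the factor that turns on myelin genes at the end of differentiation, went the other way. It was close to the floor in each MB (2.22 to 2.24), at 2.68 and 5.05 in CGNP and at 3.80 and 4.16 in WC, and was lower in MB than in CGNP (adjusted p = 0.0138) and than in WC (adjusted p = 0.00809). Nkx6-2, another factor of mature oligodendrocytes, was at least 4.13-fold lower in MB than in WC (adjusted p = 1.15e-12 by limma). It was close to the floor in each MB and CGNP sample, where the spread is compressed, so this adjusted p overstates the precision. Nkx2-2, which marks committed precursors, was 3.56-fold lower in MB than in WC (adjusted p = 0.0461), and Zeb2, which counters inhibitors of differentiation, was 2.13-fold higher (adjusted p = 1.37e-05). Sox10 stood at 3.16 to 4.57 in the MBs, 3.61 and 4.09 in CGNP and 4.46 and 4.36 in WC. CGNP_2705 was the sample that stood above its partner at the myelin genes. Without it the median log2 difference of the 9 factors between MB and CGNP was 0.55 in place of 0.41, and that of Olig2 was 3.17 in place of 2.62. Myrf then had a difference of -0.45 in place of -1.64, with both sides close to the floor, so that no direction can be read from it.

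Of 9 precursor and early genes, 2 were higher and 3 lower in MB than in WC, and 3 were higher and 2 lower than in CGNP. Of all genes, 22.2% passed higher and 21.8% lower in MB than in WC, and 18.7% and 18.6% than in CGNP, so these counts were near the background. Pdgfra, the receptor through which growth factor keeps oligodendrocyte precursors dividing, stood at 8.26 to 9.66 in the MBs, at 6.30 and 6.61 in CGNP and at 4.83 and 4.94 in WC. It was 17.2-fold higher in MB than in WC (adjusted p = 2.08e-05 by limma) and 5.79-fold higher than in CGNP (adjusted p = 0.000777). C1ql1, a secreted complement-like protein, was at least 14.4-fold higher in MB than in CGNP (adjusted p = 0.000123). Cspg4, the NG2 proteoglycan, was 4.52-fold higher (adjusted p = 0.00555). The 2 that were lower than in CGNP were Gpr17, a receptor of committed precursors, by 5.21-fold (adjusted p = 0.00144), and Enpp6, a phosphodiesterase of newly formed oligodendrocytes, by at least 2.68-fold (adjusted p = 0.00174). In the fit without CGNP_2705, which has a lone CGNP sample, the counts were again 3 higher and 2 lower, with adjusted p between 0.00252 for C1ql1 and 0.0383 for Cspg4, where 13.5% of all genes passed higher and 15.9% lower. Ptprz1, a receptor phosphatase of precursors and astroglia, was 4.03-fold lower in MB than in WC (adjusted p = 0.0481). Pdgfra, Cspg4 and Olig2 are also expressed outside the oligodendrocyte lineage, and no level here assigns them to a cell.

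**Figure D5:**
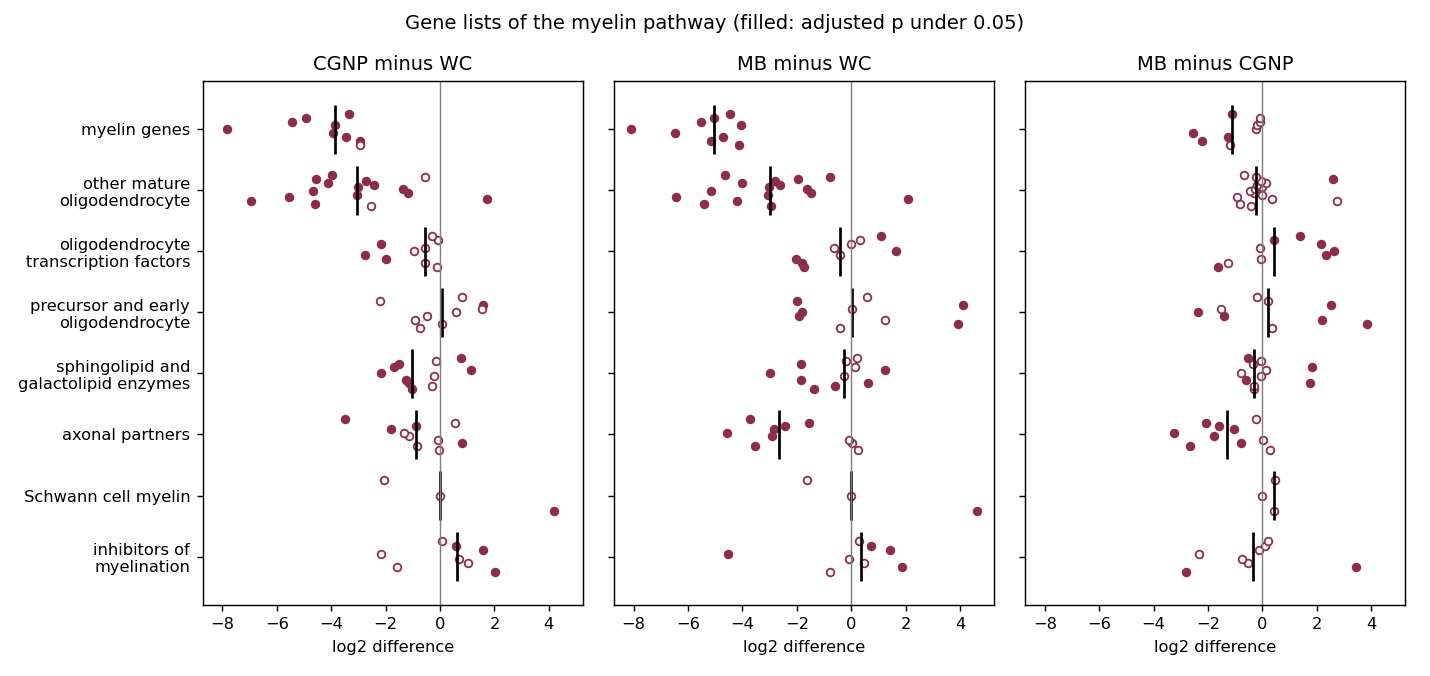
Log2 difference (horizontal axis) of each gene of 8 lists in CGNP minus WC, MB minus WC and MB minus CGNP. Each point is a gene, filled where the adjusted p by limma was under 0.05, and black bars are list medians: the myelin genes at -3.86, -5.03 and -1.13, and the precursor genes at 0.06, 0.02 and 0.21.

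Enzymes that act before and after Ugt8a and Fa2h moved in both directions. Of 11 sphingolipid and galactolipid enzymes, 2 were higher and 5 lower in MB than in WC (median -0.28), and 2 were higher and 2 lower than in CGNP (median -0.30). Except for the 5 lower than in WC, these counts were no higher than the shares of all genes given above. Gal3st1, which sulfates the product of Ugt8a to sulfatide, stood at 3.06 to 4.34 in the MBs and at 6.74 and 6.79 in WC, 7.83-fold lower (adjusted p = 5.43e-05 by limma). Degs1, a ceramide desaturase, was 3.64-fold lower in MB than in WC (adjusted p = 4.88e-06). Cers2, which makes the very long-chain ceramides of myelin and of other tissues, was 1.52-fold higher in MB than in WC (adjusted p = 0.00818) and 3.33-fold higher than in CGNP (adjusted p = 1.37e-05). Kdsr, a reductase early in sphingolipid synthesis, was 3.54-fold higher in MB than in CGNP (adjusted p = 1.97e-06). Sptlc2, a subunit of the first enzyme of that synthesis, was 1.46-fold lower (adjusted p = 0.00332). Galc, which breaks down galactosylceramide, was higher in MB than in WC (at least 2.38-fold, adjusted p = 0.00265). Its mean was 3.85 in MB, 3.73 in CGNP and 2.6 in WC, and it did not pass between MB and CGNP (adjusted p = 0.873 by limma).

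Of 10 genes of axonal proteins that meet myelin at nodes and paranodes, 7 were lower in MB than in WC (median -2.64). Against CGNP 7 were lower too (median -1.31), and none was higher in either comparison. Of all genes, 21.8% passed lower against WC and 18.6% against CGNP. Among the others Ank3, the ankyrin of the node, averaged 9.24 in MB, 9.01 in WC and 8.97 in CGNP. Kcna1, a potassium channel placed beside the paranode and expressed in neurons, was 23.7-fold lower in MB than in WC (adjusted p = 0.000121 by limma) and 9.57-fold lower than in CGNP (adjusted p = 0.00153). Cntn1, an adhesion protein of the axon at the paranode, was 11.7-fold and 6.41-fold lower (adjusted p = 0.000605 and 0.00443). Sptbn4, a spectrin of the node, was 13.1-fold lower in MB than in WC (adjusted p = 2.53e-07) and did not pass against CGNP (adjusted p = 0.508). Without CGNP_2705 the median log2 difference of the same 10 genes between MB and CGNP was -1.23. Of 8 inhibitors of myelination, 3 were higher and 1 lower in MB than in WC (median 0.37), where 22.2% of all genes passed higher and 21.8% lower. Those higher were Hes1, a target of Notch, by 1.85 on the log2 scale (adjusted p = 0.00937), Lingo1, a membrane protein that restrains myelination, by 1.43 (adjusted p = 0.000119), and Sox5 by 0.71 (adjusted p = 0.0038), and Id4 fell by 4.53 (adjusted p = 0.00557). Against CGNP, Hes1 was higher by 3.45 (adjusted p = 0.000268) and Bmp4 was at least 6.97-fold lower (adjusted p = 0.000108). No other of the 8 passed there, where 18.7% of all genes passed higher and 18.6% lower. Of 3 Schwann cell genes Egr2, a factor of Schwann cells and of activated neurons, was at least 24.5-fold higher in MB than in WC (adjusted p = 0.000143), while Pmp2 was at the floor and Pmp22 did not pass (adjusted p = 0.064). Egr2 averaged 6.83 in MB and 6.4 in CGNP and did not pass between them (adjusted p = 0.747 by limma).

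Profiles of the other genes over the 12 samples were ranked by closeness to the mean profile of the 9 myelin genes. Predicted gene models and genes with clone-like names were left out of this ranking. The closest were Aspa, Fads6, Jph3, H2-Bl, Tmem88b, Phyhip, Rasgrf1, Stard10, Syt2 and Psg16. Closeness was the root-mean-square difference of log2 levels after each gene's own mean was subtracted. It was 0.294 for Aspa and 0.373 to 0.466 for the next 9, against a median of 2.005 over all genes ranked. The points share the same 12 arrays, and the contrast of 2 WC samples with the rest dominates each profile. Aspa was at 8.10 and 8.39 in WC, 3.09 and 4.21 in CGNP, 2.32 in MB_1207 and 4.25 in MB_630. The 10 genes included neuronal ones such as Jph3, a junctophilin, at 7.56 and 7.53 in WC and 2.36 to 3.29 in the MBs, and Syt2, a synaptotagmin, at 7.87 and 8.13 in WC and 2.40 to 3.28 in the MBs.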

How the data were processed

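Expression was measured on Affymetrix mouse arrays in MB (8 mice), CGNP (2 mice) and WC (2 mice), grouped by the name in each sample's title. The deposited values are log2 signals, 1 per probe set and array, which the authors made from the scanner files with the R library affy and GCRMA. That method adjusts each probe for its sequence-dependent binding and compresses weak signals to a common floor. No version was given in the sources used here. Arrays carry no read depth. Precision depends on how many arrays there are, and the spread also differed with level and between probe sets.

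The table holds 45101 probe sets. Without 64 array controls, 34945 were paired with 1 gene, 932 with several and 9160 with none. A gene was the mean log2 value of its probe sets that pair with it alone and carry no s or x suffix, or of all where each carries one (290 genes), with no filter on level. The 9 members had 24 probe sets, 19 of them averaged. Differences between MB, CGNP and WC were tested over 18193 genes in 1 fit with limma 3.58.1 (lmFit and eBayes) in R 4.3.3, two-sided, calling an adjusted p (Benjamini-Hochberg, all 18193 genes) under 0.05. limma gave every standard error, interval and adjusted p in the text, and the fit was tested on simulated data. Each array is a separate mouse, and the spread within CGNP and WC comes from 2 mice each.

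The members, the gene lists and the tests were chosen with earlier results of these data known. Named genes were the 9 members, the 2 largest rises and falls past the test in each list and comparison, and the 10 nearest profiles. Sox10, Cspg4, Sox5, Ank3, Pmp2, Pmp22, Atoh1 and Gfap were named after their values were seen. So were the single genes set beside CGNP_2705. Of 132 listed genes, 13 had no probe set named for them alone and were not analysed here. The alternatives were all probe sets or the brightest probe set for each gene, single probe sets, a further quantile normalization, arrays shifted to the same median, a trend and robust spread, a filter on level, array weights, only the pair of groups compared, a minimum log2 change of 1, the methods' t-test, unadjusted and adjusted, the 4 normal samples as 1 group, and leaving out each sample. Leaving out MB_1207 with MB_1224, MB_630 with MB_706, 1 Mbp probe set, and CGNP_2705 for the lists were added after seeing the data. Promoter windows are those of RefSeq for GRCm38.p6. Figures were drawn with matplotlib 3.10.9.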

Additional observations from a re-analysis of the deposited data

Results flagged for a closer look

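In 43 groups checked (the 9 myelin genes, their mean and other named genes over the 8 MBs), 10 held a sample far from its neighbours. The rule flags about 1 in 20 groups of independent, normally distributed values. That rate does not apply here, because the genes share the same 8 arrays and several lie close to the floor. No excess can therefore be read from the count. MB_630 was that sample in 7 of them, each time as the highest: Mag at 3.79 (others 2.25 to 2.88), Mog at 3.77 (2.32 to 2.53), Mal at 5.16 (2.2 to 3.39), Aspa at 4.25 (2.32 to 2.82), Ermn at 4.05 (2.27 to 2.4), Kcna1 at 6.6 (3.88 to 5.15) and Bmp4 at 3.18 (2.2 to 2.47). MB_630 also had the highest mean of the astroglial (7.01), Purkinje cell (6.89), endothelial (4.57) and granule neuron markers (9.66) among the MBs. Without MB_630, 9 of the 9 myelin genes passed against WC and 4 against CGNP. MB_1207 was the lowest at Galc (2.99, others 3.82 to 4.18) and at Nkx6-2 (2.2, others 2.23), the latter a gap within the range close to the floor. MB_1206 was the highest at Enpp6 (2.55, others 2.39 to 2.43), again close to the floor.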

How the results depend on the processing

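Between MB and WC all 9 myelin genes passed under every alternative run on gene levels, leaving out each sample included, with differences between -8.43 (Mal) and -3.52 (Mbp). Between MB and CGNP, where 4 passed, 2 passed with the probe set of highest signal and 0 with a minimum log2 change of 1 (limma's treat, 2 at an unadjusted p under 0.05). Leaving out 1 sample gave 0 to 4, with 0 only without CGNP_2705 (3 at an unadjusted p under 0.05). Between CGNP and WC, where 8 passed, the methods' t-test with adjustment left 1 (7 at an unadjusted p under 0.05), and leaving out 1 sample gave 6 to 8. Against the 4 normal samples together 5 passed, 9 by the methods' t-test without adjustment, and 4 to 9 on leaving out 1 sample, with 9 without CGNP_2698.

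At single probe sets, 22 of 24 were lower, Mbp 1425264_s_at was higher by 1.03 and Mobp 1441308_at, at the floor, did not pass. Signs of gene levels turned only between MB and CGNP and only for genes that had not passed. On leaving out 1 sample Mal ran from -1.02 to 0.55, Mbp from -0.83 to 0.46, Mobp from -1.01 to 0.84 and Mog from -0.37 to 0.16, each highest without CGNP_2705. Without MB_1207 and MB_1224 together Mal was at 0.06, Mbp at 0.33 and Mobp at 0.32. Mobp was at 1.76 with the probe set of highest signal and at 0.02 with array weights. The cause was not tested. Values close to the floor have no order there, so differences of Mag, Mog, Mal, Mobp and Ugt8a against the MBs are lower bounds where they passed. No paired analysis was possible because the groups share no mouse numbers.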
